A study of Mus musculus with 16 samples.

Results

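The genes Gcg, Sst, Ppy, Pyy and Ghrl encode the hormones of the islet endocrine cells other than beta cells, and their surroundings were examined for accessible chromatin. Peaks of 16 samples were merged where they overlapped or touched, and a merged region was taken when it overlapped 1 of the 5 genes, the 3 kb upstream of it or the 20 kb on either side. This gave 37 of the 347712 merged regions on chromosomes 1 to 19. Of these, 14 were assigned to Gcg, 2 to Sst, 7 to Ppy, 7 to Pyy and 12 to Ghrl, with 5 regions counted for both Ppy and Pyy, which are neighbours.

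The study profiled pancreatic islets of the founders of the Diversity Outbred mice by ATAC-seq, in which a transposase inserts adapters into open chromatin. One female and one male sample represented each of 8 inbred strains, labelled 129S1_SvImJ, A_J, C57BL/6J, NOD_ShiLtJ, NZO_HlLtJ, CAST_EiJ, PWK_PhJ and WSB_EiJ, which are named here as in the sample titles, such as 129 and B6. CAST, PWK and WSB are wild-derived and the other 5 classical, per the study. Each sample came from 50 untreated islets, and neither the age nor the number of mice behind a sample is given in the sources used here. An islet sample is bulk tissue, so fewer cells of a type and less open chromatin per cell cannot be told apart at any region below.

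Alpha cells make glucagon from the Gcg precursor, which intestinal L cells cut differently to release the incretin GLP-1. Delta cells secrete somatostatin (Sst), which restrains the release of insulin and glucagon from their neighbours. Gamma cells make pancreatic polypeptide (Ppy), its relative peptide YY (Pyy) is made by intestinal L cells and some islet cells, and epsilon cells make ghrelin (Ghrl). Beta cells are the most numerous endocrine cells of a mouse islet.

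The labelled tissue was checked against markers at transcription start sites (TSSs). A region within 100 bases of a TSS was called in all 16 samples for 9 of 9 beta cell genes, 0 of 9 acinar, 1 of 6 duct, 1 of 6 endothelial, 0 of 7 leukocyte and 1 of 5 stellate genes. The acinar markers Cpa1, Cela2a, Ctrb1, Pnlip, Cel and Ptf1a had no TSS region in any sample. The shortest list (AJ male) had 77887 peaks and the longest (WSB female) 167051, and the read total of each sample is not given in the sources used here. Signal is the deposited height at the summit of a peak, and scaled signal is that height divided by the sample median over the 40940 regions called in all 16 samples, set to 0 for a sample without a peak. Such a 0 says that no peak passed the threshold of the authors, not that the site was closed. One library stood apart at other cell types, the NZO male, in which summed scaled signal was highest for the acinar (0.873), duct (3.55) and leukocyte (2.42) markers, against medians of 0.236, 1.38 and 0.333. Its sums for the endothelial and stellate markers were 6.06 and 1.60, against medians of 6.87 and 1.44. The endothelial sum rested mainly on 1 gene, Esam, which averaged 6.61 over the 16 samples. Kdr and Tek averaged 0.0945 and 0.192, and Pecam1, Cdh5 and Flt1 had no TSS region in any sample.

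The sequences below carry the 3 sites nearest to a hormone TSS that stood open in every sample, and the cAMP response element (CRE) of Sst. All are read on the minus strand of GRCm38.p6, the strand of all 5 genes, from 5′ to 3′. Promoter and CRE sequence come from RefSeq, and the other 4 are 201 bases around the median summit. Capitals mark exact matches on either strand to the CRE TGACGTCA, the TATA box TATAAA, the CCAAT box CCAAT, the forkhead motif TGTTTAC, its variant TATTTAC, the homeobox motif TAATTA and the GC box GGGCGG. The 250 bases before the Gcg start (chr2:62483654-62483903) and the summit upstream of it (chr2:62485042-62485242) come first, followed by the CRE of Sst (chr16:23890874-23890903), the near and the far summit upstream of Sst (chr16:23898339-23898539 and chr16:23898919-23899119), and the summit upstream of Pyy (chr11:102123129-102123329).
Gcg promoter: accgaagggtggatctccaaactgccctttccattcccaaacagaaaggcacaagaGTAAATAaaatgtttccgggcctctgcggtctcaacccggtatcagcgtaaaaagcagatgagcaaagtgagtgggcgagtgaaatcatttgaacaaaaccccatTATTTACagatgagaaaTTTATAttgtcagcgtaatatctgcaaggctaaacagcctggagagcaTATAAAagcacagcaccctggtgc
Gcg upstream summit: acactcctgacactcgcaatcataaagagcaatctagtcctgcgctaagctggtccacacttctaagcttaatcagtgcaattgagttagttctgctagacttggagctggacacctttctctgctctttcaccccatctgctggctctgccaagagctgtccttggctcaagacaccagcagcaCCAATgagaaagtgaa
Sst CRE: gcctccttggcTGACGTCAgagagagagtt
Sst near summit: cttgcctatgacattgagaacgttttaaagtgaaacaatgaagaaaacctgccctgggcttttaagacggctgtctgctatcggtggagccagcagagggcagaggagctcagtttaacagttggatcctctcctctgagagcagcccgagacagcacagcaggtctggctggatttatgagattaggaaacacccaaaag
Sst far summit: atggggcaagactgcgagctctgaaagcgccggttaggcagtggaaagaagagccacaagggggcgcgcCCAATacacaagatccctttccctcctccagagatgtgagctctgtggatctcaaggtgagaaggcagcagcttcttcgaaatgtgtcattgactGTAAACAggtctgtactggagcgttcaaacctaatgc
Pyy upstream summit: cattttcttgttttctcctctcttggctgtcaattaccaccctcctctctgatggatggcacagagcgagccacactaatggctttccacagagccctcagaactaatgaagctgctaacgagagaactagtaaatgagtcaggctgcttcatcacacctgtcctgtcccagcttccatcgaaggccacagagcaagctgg

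The Gcg promoter held TATAAA at bases -24 to -19 before its RefSeq start and TATTTAC in both directions. Among 31396 promoters of the same length, 12.4% held a TATA box and 2.75% held TATTTAC. The CRE stood 48 to 41 bases before the RefSeq start of Sst, a sequence found in 1.58% of promoters and in none of the other 4 hormone promoters. RefSeq places the Sst start 114 bases downstream of the GENCODE start used below, so by GENCODE the CRE lies inside the gene. At the distal sites, the Gcg upstream summit held CCAAT and the far Sst summit CCAAT and TGTTTAC, which 26.4% and 6.31% of 40940 summit windows of shared regions also held. The near Sst and the Pyy summits held none of the capitalised motifs. The shorter CRE motif TGACG, which lies within the CRE, the E-box CANNTG, the HNF1-like motif GTTAAT, the PAX6-like core TCACGC, the MAF-like motif TGCTGA and the GATA motif AGATAA were searched on both strands and not capitalised. The E-box matched at the Gcg, near Sst and Pyy summits and in 69.4% of all windows. A match describes the letters only.

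Of the 5 hormone genes, Gcg alone had a region at its TSS in all 16 samples, against 53.2% of 20780 protein-coding genes. Sst, Ppy and Pyy had no peak within 100 bases of an annotated TSS in any sample. At Ghrl such a peak was listed in the WSB female alone, at a scaled signal of 0.0566. Of the whole set, 7 of the 37 regions (18.9%) were called in all 16 samples, against 11.8% of all 347712 regions. The rule used the position of regions and not these calls. Another 3 regions were called in 12 to 15 samples, 11 in 2 to 11 samples and 16 in 1 sample. These are 8.11%, 29.7% and 43.2% of the 37 regions, against 7.46%, 34.4% and 46.4% of all merged regions.

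**Figure D1:**
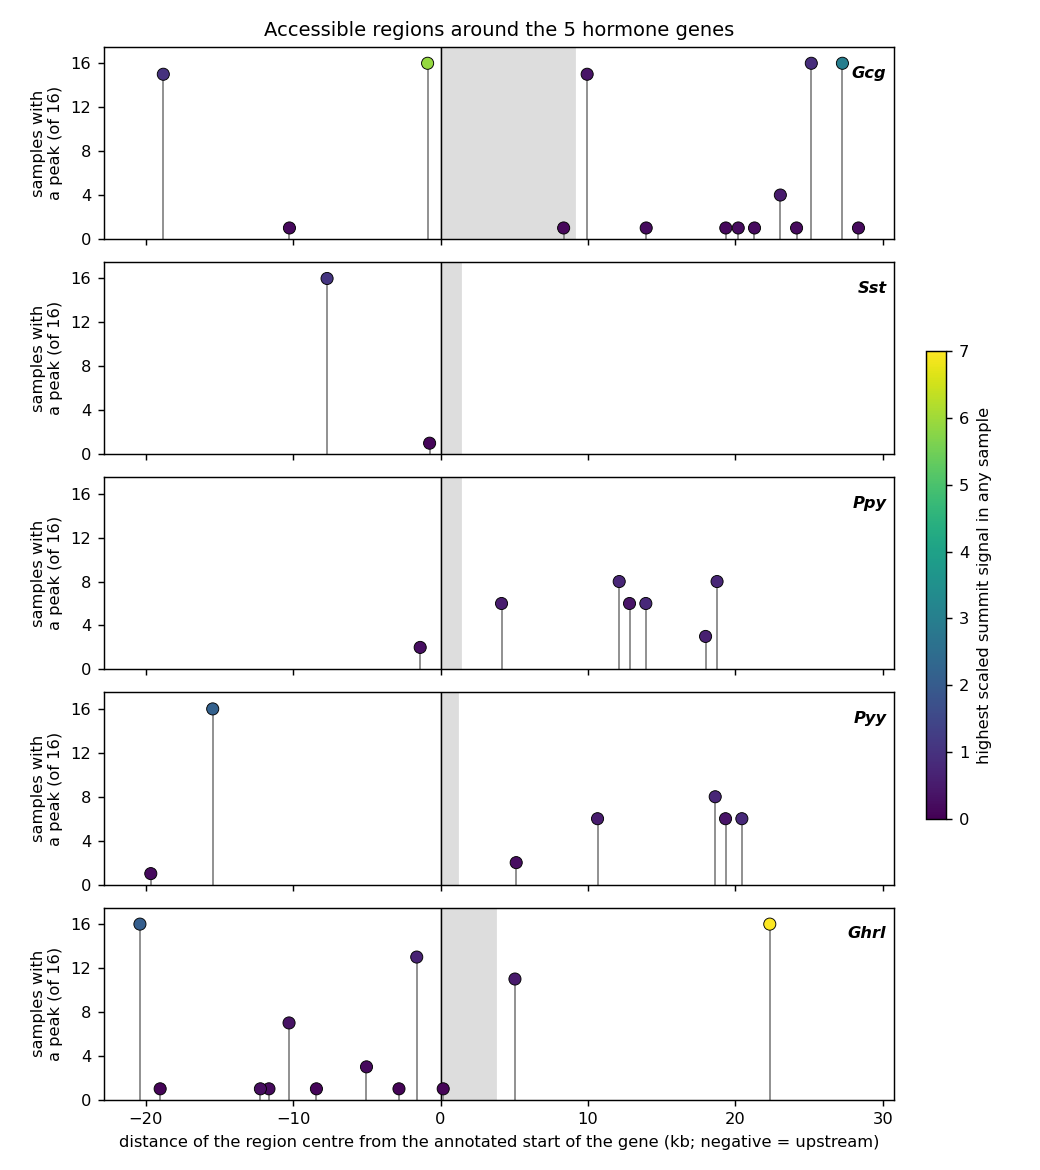
Merged regions around each hormone gene, by the distance of the region centre from the annotated start (kb, negative upstream, grey for the gene body) and the number of the 16 samples with a peak, coloured by the highest scaled summit signal. Gcg has a region at its start in all 16 samples, while those of Sst and Pyy called in all 16 lie upstream, 7077 and 15153 bases from the genes.

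Gcg had the most open site of the set that was not the promoter of another gene. Its region (chr2:62483488-62485567) spanned the first exon and the adjoining upstream DNA, with a mean scaled signal of 4.03 ± 1.02 (SD, n = 16), higher than 91.95% of shared regions. The female and the male stood at 5.90 and 5.61 in NOD, 4.66 and 4.93 in AJ, 4.25 and 4.29 in B6, 3.39 and 4.50 in PWK, 3.53 and 3.86 in CAST, 3.75 and 3.19 in WSB, 2.66 and 4.30 in 129, and 3.89 and 1.85 in NZO. Both NOD samples lay above all others, and the lowest 2 samples were the NZO male and the 129 female. For comparison of heights, the TSS region of the insulin gene Ins1 averaged 3.97, that of Ins2 0.886 and that of Iapp, the amylin gene, 1.02. Each height is the highest summit anywhere in a merged region, and these regions were 10135, 5203 and 1238 bases wide. They are therefore not heights at the starts themselves, and the Gcg summit lay upstream of the start, as described next.

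This height did not come from the Gcg TSS itself. The highest summit lay 1470 to 1500 bases upstream of the start in all 16 samples, with a median of 1492. All 16 samples also had a peak within 100 bases of the TSS, but in 12 of them it was a separate, lower peak. Its summit stood 23 to 132 bases upstream of the start, at a scaled signal from 0.327 in the AJ male to 1.05 in the PWK female, median 0.579. In these 12 samples the upstream peak was 2.76 to 15.1 times as high as the peak at the start, median 6.81, with the smallest ratio in the NZO male and the largest in the AJ male. In the other 4 samples, both CAST samples, the PWK male and the WSB female, a single peak of 1730 to 2035 bases ran over both sites. This split was noticed in the data and received no test.

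**Figure D2:**
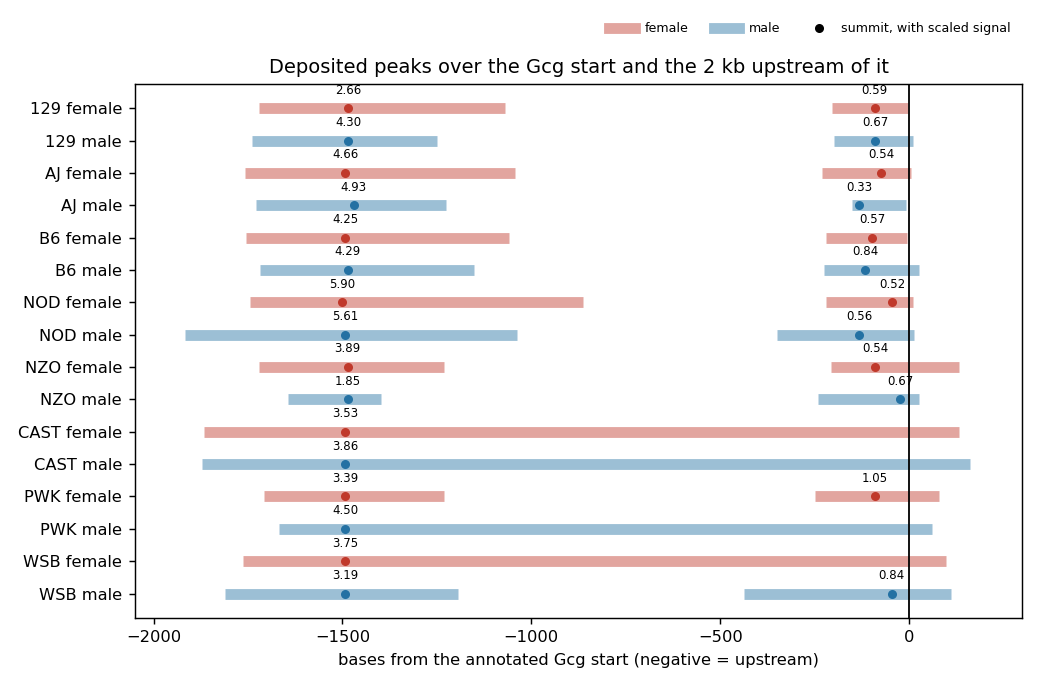
Deposited peaks of each sample over the Gcg start and the DNA upstream, with bars for the extent of a peak, dots for its summit and the scaled summit signal printed above each. The summits near 1492 bases upstream line up in all 16 samples, and the separate peak at the start is lower in each of the 12 samples that have it.

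To ask whether strains differed at the hormone genes, log2(signal + 1), centred on the sample median, was fitted with limma as strain plus sex over all 40940 shared regions. The residual therefore comes from the pair of samples of each strain, beyond a sex difference common to all strains. Of the 7 shared regions, 1 passed an adjusted p of 0.05 in limma's F test for strain, against 35.7% of all shared regions. The Gcg region was not among the calls (limma's F test, adjusted p = 0.188). NOD stood 0.64 ± 0.25 (SE) above the mean of the other 7 strains on the log2 scale (limma, adjusted p = 0.181) and NZO 0.61 ± 0.25 below it (log2 difference -0.61, adjusted p = 0.151). The NZO value rested on 1 library, since the difference was -0.01 without the NZO male and -1.22 without the NZO female (limma, adjusted p = 0.997 and 0.00616). Without the NZO female limma's F test also called the region, and NOD, then 0.73 above the others, was called as well. In that fit far more of all shared regions were called too, as given at the end. The NZO male carried the highest acinar, duct and leukocyte marker sums given above. In it, high-GC shared regions also stood furthest above low-GC ones, by 1.65 on the log2 scale, and the Gcg region held 41.8% GC. The part of the marker sums or of GC content in its low Gcg signal was not tested.

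The called region lay 17234 bases downstream of Gcg (chr2:62455482-62457296), at the start of the lincRNA Gm13564 and within the longer antisense gene Gm13561. Scaled signal in the female and the male was 2.56 and 2.96 in CAST, 1.65 and 2.13 in NOD, 1.44 and 2.12 in B6, 1.11 and 1.35 in AJ, 0.934 and 1.26 in WSB, 0.690 and 1.06 in 129, 1.47 and 0.382 in NZO, and 0.548 and 0.469 in PWK. Both CAST samples exceeded the other 14, and only the NZO male lay below the PWK samples. The strain effect had an adjusted p of 0.0180 (limma's F test), and the strain means spread over 2.40 on the log2 scale, more than in 95.7% of shared regions. CAST was 1.38 ± 0.35 (SE) above the mean of the other 7 (log2, limma, adjusted p = 0.0143), a call made as higher in CAST for 6.82% of shared regions. PWK fell by 1.36 ± 0.35 on the log2 scale (limma, adjusted p = 0.0243), a call made as lower in PWK for 5.75%. With the other deposited signal column the PWK difference was -0.70 and was not called (limma, adjusted p = 0.0811). CAST and PWK are both wild-derived, and they lay at opposite ends of the order.

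This call was lost when certain single libraries were left out. Over all shared regions, fewer were called without the CAST strain or either CAST sample, and far more without the NZO female, as given at the end. Without the CAST strain the adjusted p was 0.0923, without the CAST female 0.0586, without the CAST male 0.0665, without the PWK male 0.0584, and without the NZO female 7.05e-05 (limma's F test). The CAST contrast was 1.47 without the CAST female and 1.28 without the male on the log2 scale, neither called (limma, adjusted p = 0.135 and 0.192). The PWK contrast was -1.50 without the PWK female and -1.23 without the male, also not called (limma, adjusted p = 0.129 and 0.216). A strain left with 1 sample is assumed there to vary like the others. The NZO male differed from its female more than any other pair here, and its highest summit lay 27827 bases downstream of the Gcg start, against a median of 26920. A second shared region 15531 bases downstream of Gcg (chr2:62458000-62458999), in an intron of Gm13561, was lower, from 0.194 in the PWK female to 0.879 in the 129 female (adjusted p = 0.0609, limma's F test). That p was 0.0471 without the 129 female, 0.0135 without the 129 male and 0.0437 without the NZO female (limma). The Gm13561 intron was also called with the other deposited signal column (27.8% of all shared regions) and with no centring (63.2%). A further pair of Gcg regions was called in 15 samples. One, 331 bases downstream of the gene, was missing in the PWK male and stayed at or below 0.382. The other, 18312 bases upstream in Fap, which encodes a cell surface serine protease, was missing in the AJ male and reached 0.991 in the WSB female.

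**Figure D3:**
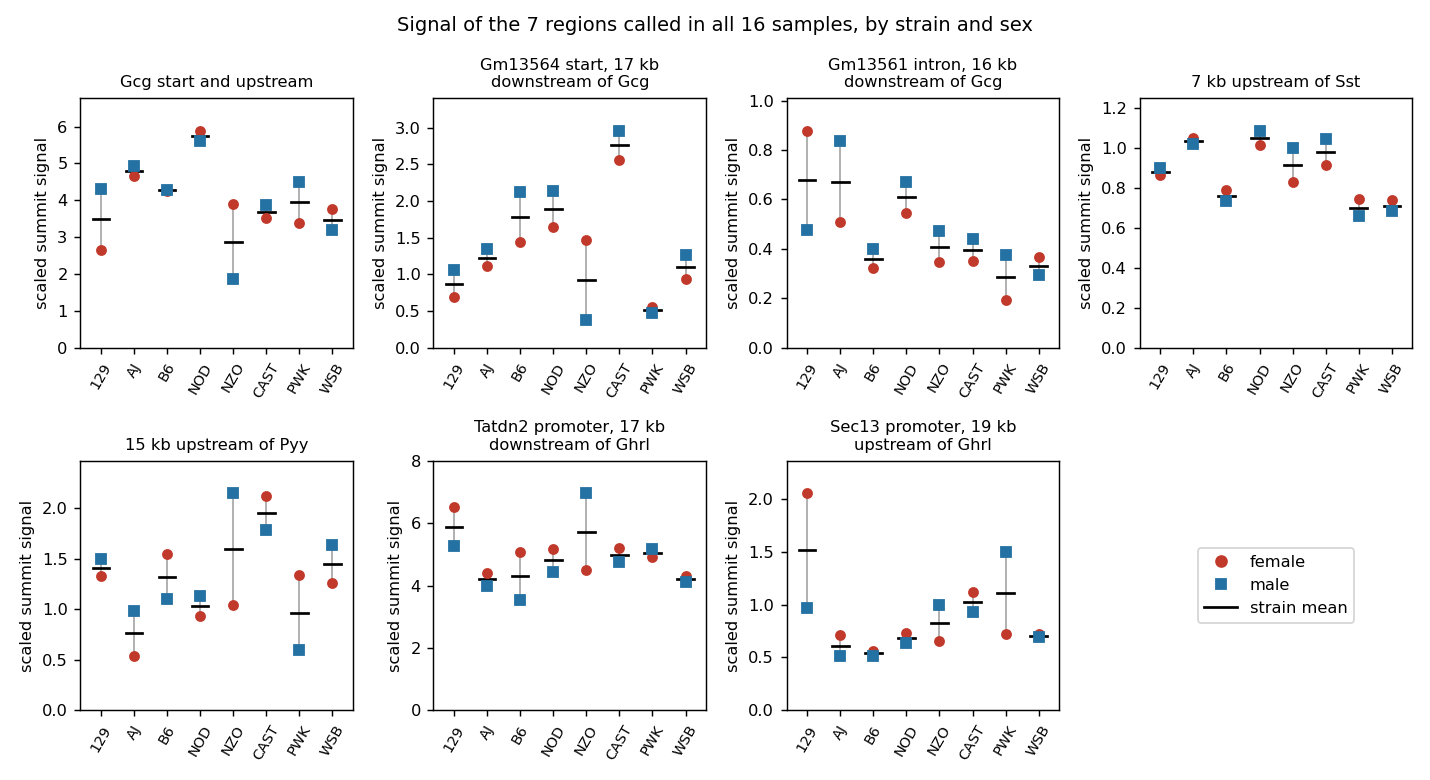
Scaled summit signal of the 7 regions called in all 16 samples, with the female as a circle, the male as a square and the strain mean as a bar. CAST lies highest and PWK lowest at the Gm13564 start downstream of Gcg, and the region upstream of Sst stays between 0.656 and 1.09.

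Sst was accompanied by 2 regions. One, 642 bases upstream, was listed in the PWK female alone at a scaled signal of 0.0968. The other (chr16:23898035-23899275) lay 7077 bases upstream, in no annotated gene, and was called in all 16 samples. Its scaled signal in the female and the male was 1.01 and 1.09 in NOD, 1.05 and 1.02 in AJ, 0.915 and 1.04 in CAST, 0.827 and 1.00 in NZO, 0.862 and 0.899 in 129, 0.786 and 0.735 in B6, 0.736 and 0.682 in WSB, and 0.742 and 0.656 in PWK. By summit signal this was one of the steadiest sites, its strain means ranging over 0.57 on the log2 scale, a wider range than in only 6.29% of shared regions. The strain effect had an adjusted p of 0.157 (limma's F test). With the other deposited signal column the F test did call this region, as it did 27.8% of all shared regions. It was also called with no centring, where 63.2% were. The region held its place at an IDR of 0.05 in all 8 strains, IDR being a score of how well a peak repeats between both sexes of a strain.

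The highest summit within this Sst region fell at 1 of 2 positions. It lay 7461 to 7509 bases upstream of the GENCODE start in 10 samples and 8060 to 8071 bases upstream in 6. The 6 far samples were the females of AJ, B6, NOD, NZO, CAST and WSB, while all 8 males and the females of 129 and PWK had the near summit. Of the 40940 shared regions, 2059 had 2 summit positions at least 300 bases apart with 4 or more samples at each. In 2 of these (0.0971%), this region among them, the female and male counts at a position differed by 6 or more. This split was noticed in the data, so no p-value is given. The deposited lists give 1 summit a peak, and the height at the other site is not among the values used here.

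**Figure D4:**
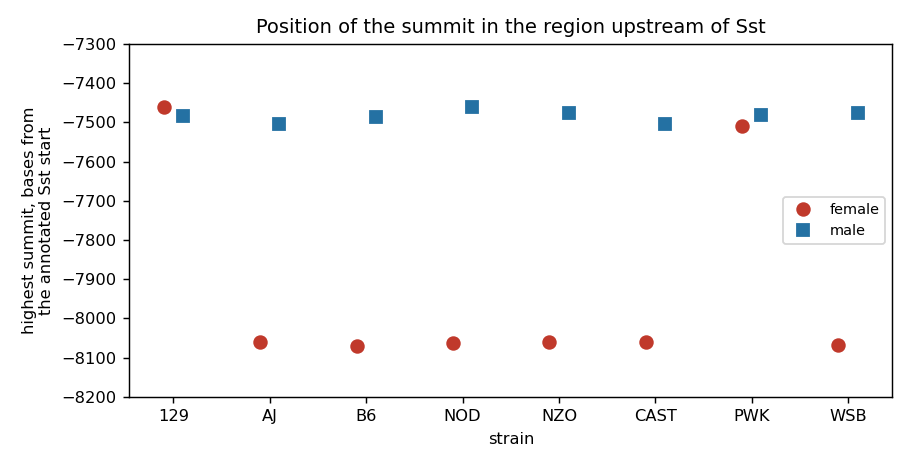
Distance of the highest summit of the region upstream of Sst from the annotated Sst start (bases, negative upstream), with females as circles and males as squares for each strain. The near site, 7461 to 7509 bases upstream, holds all 8 males, and the far site, 8060 to 8071 bases upstream, holds 6 females.

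Ppy had no region called in all samples. Its 7 regions were called in 2 to 8 samples, and 6 samples (both AJ, both NOD, the B6 male and the PWK male) had none of them. The NZO male had all 7 and the highest signal in each, with a summed scaled signal of 4.13, followed by the 129 female at 2.07 with 6 regions. No other sample exceeded the 1.25 of the WSB male. In the 3 kb upstream of Ppy, only the CAST female (0.0849) and the NZO male (0.255) had a peak, 1281 bases from the gene. Several of the 7 lay in or at starts of Mpp2, the downstream neighbour, which encodes a membrane scaffold protein. The 7 regions held 53.2% to 68.9% GC, against a median of 47.0% over shared regions. High-GC shared regions stood above low-GC ones by 1.65 on the log2 scale in the NZO male and 1.42 in the 129 female, the largest such differences of the 16 samples, and the part of GC content in the Ppy calls was not tested.

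Pyy shared 5 of these weak regions and added one shared by all samples 15153 bases upstream (chr11:102122985-102123588), outside annotated genes. The female and the male stood at 2.11 and 1.78 in CAST, 1.04 and 2.15 in NZO, 1.25 and 1.64 in WSB, 1.33 and 1.49 in 129, 1.55 and 1.10 in B6, 0.930 and 1.13 in NOD, 1.34 and 0.594 in PWK, and 0.538 and 0.982 in AJ. The NZO male and the CAST female were highest, and the sexes of NZO and of PWK differed by more than most strains did. The strain effect had an adjusted p of 0.142 (limma's F test), with CAST 0.75 ± 0.32 above the other strains (adjusted p = 0.110) and AJ lower (log2 difference -0.85 ± 0.32, adjusted p = 0.104). The F test called this region without the NZO female or without the PWK female. Without the NZO female, far more of all shared regions were called too, as given at the end. The Pyy upstream region was also called with the other deposited signal column (27.8% of all shared regions) and with no centring (63.2%). No peak was listed in the 3 kb upstream of Pyy in any sample. One more region 19635 bases upstream appeared in the CAST female alone.

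Ghrl lay between the promoters of housekeeping neighbours, which gave its 2 shared regions. The promoter of Tatdn2, a gene of the TatD nuclease family 17498 bases downstream (chr6:113696471-113698621), ranged from 3.53 in the B6 male to 6.96 in the NZO male around a mean of 4.90 ± 0.878 (SD, n = 16). The promoter of Sec13, a component of COPII coats and of nuclear pores 19489 bases upstream (chr6:113739369-113741175), ranged from 0.509 in the AJ male to 2.05 in the 129 female around 0.877 ± 0.405. Neither differed between strains beyond the spread of the sexes (limma's F test, adjusted p = 0.540 and 0.0945). The F test called the Sec13 promoter without the 129 male, the NZO female or the PWK female. Without the NZO female, far more of all shared regions were called too, as given at the end. With no centring both promoters were called, as were 63.2% of all shared regions. Closer to Ghrl, a region 948 bases upstream (chr6:113720828-113722160) was called in 13 samples and was missing in both AJ samples and the NOD male. Its scaled signal was at most 0.673, in the NZO male, and it held at an IDR of 0.05 in CAST and WSB alone. A region 1038 bases downstream, at the start of the antisense RNA Gm26982, was called in 11 samples at up to 0.491. The remaining Ghrl regions comprised 1 called in 7 samples, 1 in 3 and 6 in 1, the TSS region among the last.

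**Figure D5:**
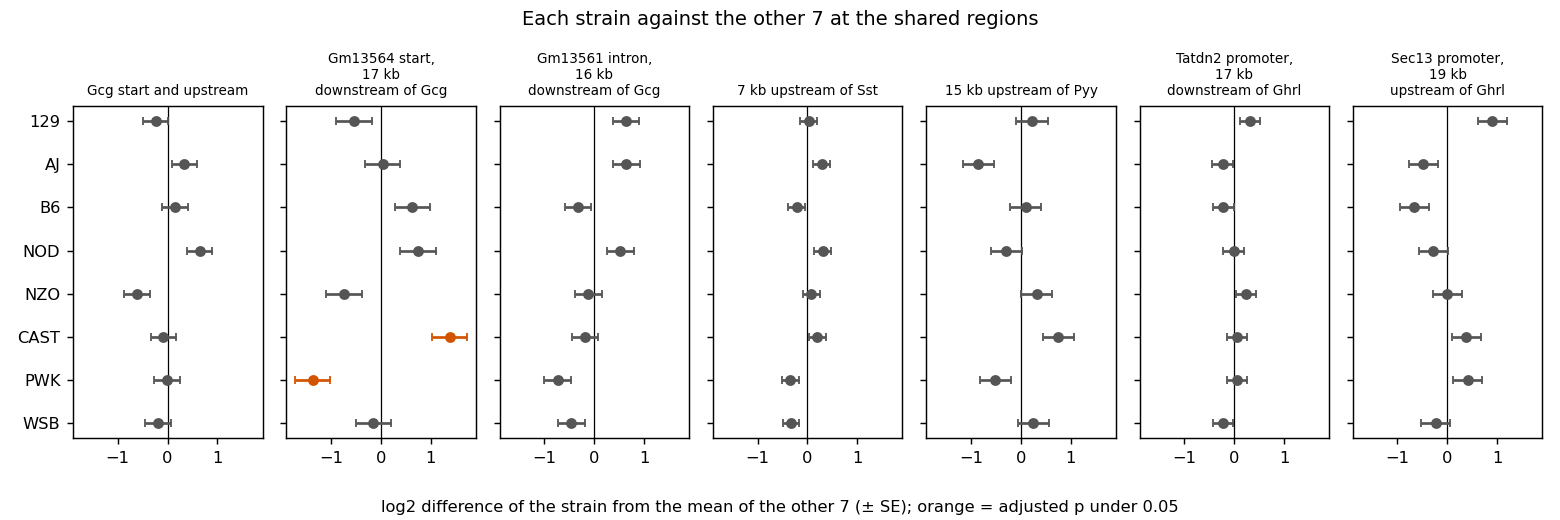
Log2 difference of each strain from the mean of the other 7 (± SE, limma) at the 7 shared regions, orange where the adjusted p is under 0.05. CAST (1.38) and PWK (-1.36) at the Gm13564 start are the 2 called differences of 56.

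Placing the strains in order at each of the 7 regions, no pair of neighbours differed by more than the 95% margin of their difference, 0 of 49 pairs. Neighbours in a sorted order are the closest pairs, so this count does not tell whether strains further apart differed. At the Gcg region the log2 means ran from 2.51 in NOD through AJ, B6, PWK, CAST, WSB and 129 to 1.41 in NZO, with gaps of at most 0.33 against a margin of 0.72. At the Gm13564 start they ran from 1.45 in CAST to -0.95 in PWK, with gaps of at most 0.55 against 1.01.

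To ask about sex, females were compared with males in the same model. None of the 7 regions was called, and 0 of 40940 shared regions (0%) were, by limma at an adjusted p of 0.05, while 1621 had an unadjusted p under 0.05 (0 of the 7). No other tool was run. The female minus male log2 differences of the 7 ranged from -0.23 ± 0.18 at the Gm13561 intron to 0.09 ± 0.13 at the Tatdn2 promoter. At Gcg the difference was 0.01 ± 0.17, and at the Sst upstream region -0.03 ± 0.11.

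Wild-derived and classical strains were compared on the 8 strain means. None of the 7 regions was called (limma, adjusted p of 0.05), against 14 of 40940 shared regions (0.0342%), and 4960 had an unadjusted p under 0.05. The Gm13561 intron was the 1 hormone region among these, 0.64 ± 0.26 lower in wild-derived strains (log2 difference -0.64, limma, adjusted p = 0.359). At the Gm13564 start the class difference was -0.06 ± 0.47, with CAST and PWK on opposite sides. The Gcg region differed by -0.13 ± 0.26 and the Sst upstream region by -0.22 ± 0.22.

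The genes that process these hormones, receive them or regulate their cells were counted at their TSS regions. Of 7 processing enzymes, 6 were called in all 16 samples and 2 passed limma's F test for strain, Pcsk1, a prohormone convertase (adjusted p = 0.0119, higher in CAST and lower in NZO), and Cpe, the carboxypeptidase that trims basic residues (0.0344). Summed over the processing enzymes, scaled signal was lowest in the NZO male, at 17.9 against a median of 26.4. The Pcsk1 contrast without that library is not given here. Mboat4, which acylates ghrelin, had no TSS region. Of 14 receptors, 6 were called in all samples and 2 passed, both lower in CAST, the receptors Npy1r (0.0150) and Npy2r (0.00288) of the neuropeptide Y family, to which peptide YY belongs. Among receptors of glucagon, somatostatin and ghrelin, Gcgr was called in 3 samples, Sstr3 in 10, Sstr2 in 8, Sstr5 in 1, and Sstr1, Sstr4 and Ghsr in 16. Of 15 regulators, 11 were called in all samples and 5 passed, namely Foxa2 (0.0114), Nkx2-2 (0.0305), Etv1 (0.0151), Rfx6 (0.0477) and Gata6 (0.0258). A TSS region in all 16 samples was found for 53.2% of protein-coding genes, and 35.7% of all shared regions passed the F test. Single-strain contrasts called 6.82% of shared regions higher in CAST, 13.8% lower in CAST and 2.87% lower in NZO. The alpha cell regulator Irx1 had a TSS region in 15 samples, its relative Irx2 in 16, and Hhex, needed by delta cells, in 10. Sex and strain class were tested for the listed genes with a TSS region in all 16 samples, and none of those passed.

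Finally, protein-coding genes on other chromosomes were ranked by the correlation of their TSS region with a hormone region over the 8 strain means. Each point is the same pair of libraries in both, so this describes likeness only. The closest were picked from 11063 shared TSS regions, less those on the same chromosome. With 8 points, the highest of so many correlations can be large without any link. Closest to the Gcg region were Fam110b (r = 0.980), Herc3 (0.970) and Nipa2 (0.967). Closest to the Sst upstream region were the TSS region shared by Ahsa1 and Vipas39 (0.980), Tcf7l1 (0.918) and Tmem19 (0.886). The Pyy upstream region was most like Mgrn1 (0.985), Diras2 (0.977) and Psmb8 (0.974). For the Gm13564 start the nearest was Ank2 (0.952).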

How the data were processed

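Islet chromatin accessibility was measured by ATAC-seq in 16 samples. Per the study's methods and the submitters' processing notes, reads were trimmed with cutadapt 2.0, aligned to mm10 with Bowtie2 2.3.4.1 and cleared of duplicates with Picard 2.9.2, and MOSAiCS peaks were identified per sample at an FDR of 0.05. The reads of all strains were aligned to the B6 reference, so variants can lower signal in other strains. The study also aligned reads to individualized genomes and judged the differences no larger than slight changes of alignment settings would give. Whether read ends were shifted for the transposase is not given in the sources used here. The deposited signal is a whole number at the peak summit. The authors also deposited a −log10 p-value for every peak, used to rank peaks, and IDR lists per strain. A deposited mean signal served only as an alternative, since what it averages is not stated. The read depth of single samples is not given in the sources used here, so the depth behind a value is unknown and no counting interval is given, and every column was mapped to its sample or strain.

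Peaks on chromosomes 1 to 19 were merged over samples and annotated with GENCODE vM21. Tests used limma 3.58.1 in R 4.3.3 on log2(signal + 1), centred on the sample median, over the 40940 regions called in all 16 samples, with strain and sex as terms, Benjamini-Hochberg adjustment and a threshold of 0.05, and were checked on simulated data. Each of the 8 strain contrasts was adjusted over its own regions, and strain classes were compared on strain means. Log2 differences with a pseudocount understate those of low signals. Nothing states whether the samples of a strain came from separate animals beyond their sex. Named regions were the TSS region and the highest region of each gene and any region past a threshold. Also named were the 3 genes most like these regions, and listed genes past the threshold. The members and lists were chosen with earlier results of these data known. Alternatives changed the centring, scaling, pseudocount, filters, peak sets, signal column, sex term and samples.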

Additional observations from a re-analysis of the deposited data

Results flagged for a closer look

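The 129 female stood apart from the other 7 females at both promoters beside Ghrl, by Dixon's test at its 95% critical value for 8 samples. At the Tatdn2 promoter its scaled signal was 6.52, against 5.20 in the next female, a gap of 0.595 of the range of the females. At the Sec13 promoter it was 2.05, against 1.12 in the next, a gap of 0.623 of the range. Each of the 7 shared regions was examined in the females and in the males, 14 groups in all. Chance flags about 1 in 20 groups of like samples. Here each sample of a group came from a different strain, so an outlying sample cannot be told from an outlying strain. High-GC shared regions stood above low-GC ones by 1.42 on the log2 scale in the 129 female, and the part of GC content in these values was not tested.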

How the results depend on the processing

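The strain test called 1 of the 7 hormone regions (35.7% of all shared regions), and again 1 under quantile normalisation, a pseudocount of 5, summed summits, no sex term, the stronger 50% of peaks, equal peak numbers or centring within GC bins, which was chosen after seeing the data. It called 6 of 7 with no centring (63.2% of all regions), 4 of 7 with the mean signal column (27.8%), 0 without the CAST strain (15.5%), and 0 of 1 where peaks had to cover 50% of a region (32.6%). Among regions called in at least 12 samples it called 2 of 9 (33.7%), adding the Fap region (adjusted p = 0.0291 by limma), while the region 948 bases upstream of Ghrl could not be fitted, since AJ had no sample there. Leaving out 1 sample gave from 0 calls, without the CAST female (18.7% of all regions), the CAST male (19.2%) or the PWK male (33.9%), to 5 without the NZO female (60.1%), with 3 without the 129 male (36.5%) or the PWK female (34.3%) and 2 without the 129 female (31.3%). Single-strain contrasts called 2 of 56 (7.34% over all regions), against 10 with no centring (15.2%), 5 with the mean signal column (5.22%), 0 of 8 with 50% coverage (6.51%), and from 1 without the CAST female or male (3.54% each) to 8 without the NZO female (15.8%), with 5 without the NZO male (11.2%). The cause was not tested. Sex and strain class called 0 hormone regions in every setting run, and no called difference changed direction. Of the 37 regions, 7 were called in all 16 samples (11.8% of all regions), 5 with the stronger 50% of peaks (7.05%), 6 with equal peak numbers (9.32%) and 1 with 50% coverage (1.09%). Region calls in a strain numbered 61 of 296 at an IDR of 0.05 (20.6%, against 13.7% over all regions) and 92 in the strain lists as deposited (31.1%, against 23.0%). The strain and sex fit compares the sexes within strains, and the labels number no other replicates that could pair samples. With 2 samples a strain, small differences were not detectable.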
